A study of Mus musculus with 5 samples.

Results

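Bone morphogenetic protein (BMP) ligands and their receptors were followed in RNA from mitral valve leaflets of mice. The set holds 10 of the 24062 genes in the deposited count table, found by symbol: the ligands Bmp2, Bmp4, Bmp6 and Bmp7, the type I receptors Bmpr1a, Bmpr1b, Acvr1 and Acvrl1, the type II receptor Bmpr2, and Eng, a co-receptor. Of these, 9 had reads and passed the filter on low counts, and Bmpr1b had no read in any library. The study asked how knockout of Ift88, a gene of the transport machinery that builds cilia, alters the leaflet transcriptome. It has 5 libraries, 2 whose titles name them wild type (WT) and 3 whose titles name them knockout (KO).

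All 5 libraries carry NfatC1Cre, a Cre recombinase driven in the endocardial lineage, so cells outside that lineage can keep an intact gene in KO. The genotype entries give Ift88f/f to WT and Ift88+/+ to KO, the reverse of what the titles say. Ift88 itself went with the titles: it stood at 7.54 and 19.8 CPM (counts relative to library size, after TMM scaling) in WT replicates 1 and 2, and at 3.0, 3.92 and 0.409 in KO replicates 1, 2 and 3. Its log2 fold change was -2.48 (SE 1.13), with adjusted p = 0.81 in the edgeR quasi-likelihood test, so this difference did not pass over all genes. Ages are not given in the labels, and nothing there says that the libraries came from separate animals. The p-values below therefore cover just the spread among these libraries, which may be technical.

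BMP ligands are secreted dimers that bring type I and type II serine/threonine kinase receptors together. The type II receptor phosphorylates the type I receptor, which then phosphorylates Smad1, Smad5 and Smad9, and these enter the nucleus with Smad4. In the developing heart, BMP2 from the myocardium of the atrioventricular canal acts on the endocardium, where cells leave the lining and form the cushions from which the mitral leaflets grow. Acvrl1 (ALK1) and endoglin are chiefly endothelial, and bind circulating BMP9 and BMP10.

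The sequences just upstream of the start sites of Eng and Bmp4 are shown because these were the receptor gene and the ligand gene with the highest mean level per transcript length. Both come from RefSeq on GRCm38.p6, and each holds the 250 bases before the start. The Eng window is chr2:32646345-32646594 on the plus strand and the Bmp4 window is chr14:46390670-46390919 on the minus strand, both written 5′ to 3′ along the gene. Capitals mark the core letters of ETS-family sites, GGAA or its complement TTCC, a family that includes major endothelial regulators.
Eng: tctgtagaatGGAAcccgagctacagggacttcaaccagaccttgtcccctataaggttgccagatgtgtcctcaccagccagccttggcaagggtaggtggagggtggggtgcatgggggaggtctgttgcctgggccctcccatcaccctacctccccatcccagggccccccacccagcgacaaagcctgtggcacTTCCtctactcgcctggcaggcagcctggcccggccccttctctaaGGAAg
Bmp4: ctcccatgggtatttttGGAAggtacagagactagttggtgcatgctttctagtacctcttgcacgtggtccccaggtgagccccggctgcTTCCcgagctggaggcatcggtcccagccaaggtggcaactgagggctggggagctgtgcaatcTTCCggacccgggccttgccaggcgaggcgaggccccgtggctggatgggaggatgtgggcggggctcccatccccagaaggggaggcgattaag

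On GRCm38 (GENCODE M21) all 10 are protein-coding genes. The ligand genes are Bmp2 at chr2:133552159-133562885 and Bmp6 at chr13:38345107-38500302 on the plus strand, and Bmp4 at chr14:46383520-46390669 and Bmp7 at chr2:172868012-172940321 on the minus strand. The type I receptor genes Bmpr1a (chr14:34410734-34503341), Bmpr1b (chr3:141837136-142169425) and Acvr1 (chr2:58388644-58567157) lie on the minus strand, and Acvrl1 (chr15:101128522-101145336) on the plus strand. Bmpr2 (chr1:59763400-59879014) and Eng (chr2:32646595-32682669) are on the plus strand.

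Each window of Eng and Bmp4 holds 3 matches on both strands together, and 3 is also the median over all 32851 windows of the same length, of which 93.4% hold a match. The GC box GGGCGG (complement CCGCCC) has 1 match in the Bmp4 window and 0 in that of Eng, against 32.7% of windows with a match. The element GGCGCC, a GC-rich sequence found in BMP-responsive genes, has 0 in both, against 9.59% of windows with a match. Among the members, 7 have an entry in the table of windows, and Bmp2, Bmp7 and Acvrl1 have none. The Acvr1 window had the highest GC content of these, 85.6%, against a median of 52.4% over all windows. It holds 6 GC boxes, and the Bmpr1a window, at 78.8% GC, holds 4. The windows lie before the RefSeq starts. By the GENCODE coordinates above, those of Eng and Bmp4 lie just before the gene. Those of Acvr1, Bmpr1a, Bmpr2, Bmp6 and Bmpr1b lie inside the gene, so they need not be upstream of every start. A match is a description of the letters only.

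The libraries differed in the markers of the cell types they held. Library totals lay between 23361414 and 53789026 counted reads. Of 8 cardiomyocyte markers (Myh6, Actc1 and others) all had reads in every library, but their summed level was 49090 CPM in WT replicate 1 and 76.3 in WT replicate 2, and 20731 to 27686 in KO. The 10 endothelial markers (Pecam1, Tie1, Tek and others, without Eng or Acvrl1) were likewise all detected and summed to 460 and 3139 CPM in WT and 1723 to 2332 in KO. The 9 interstitial markers (Dcn, Col1a1, Postn and others) summed to 2609 and 7655 CPM in WT and 7273 to 10591 in KO. WT replicate 1 thus had the highest sum of heart muscle markers and the lowest sums of lining and stromal markers, and WT replicate 2 had the lowest sum of heart muscle markers. Fewer cells of a type and less RNA per cell cannot be told apart in such bulk samples. The part these markers play in the results below was not tested.

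**Figure D1:**
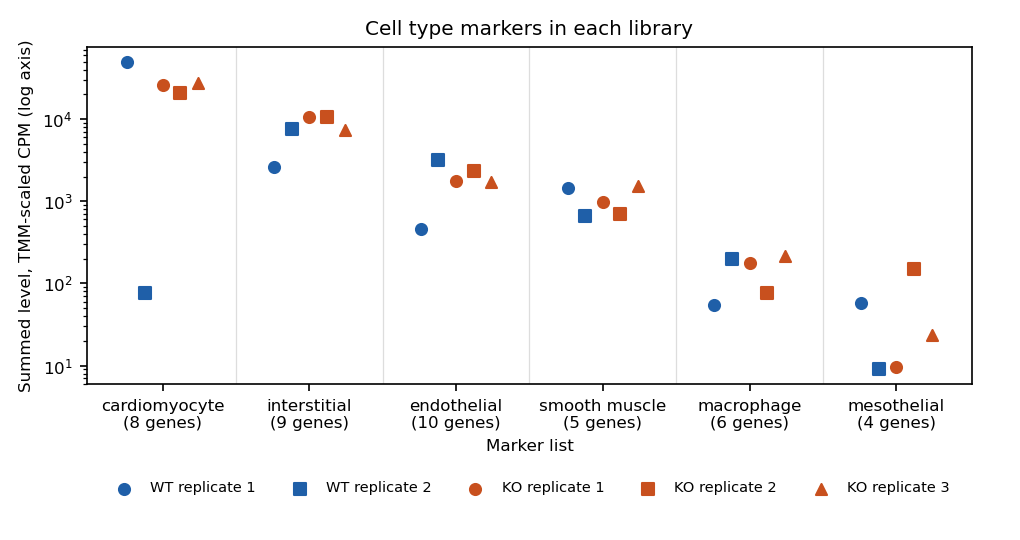
Sums of CPM over each marker list, one point per library, with a logarithmic vertical axis. WT replicate 2 lies at 76.3 for cardiomyocyte markers, where the other 4 libraries lie between 20731 and 49090, and WT replicate 1 lies lowest for endothelial and interstitial markers.

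Between KO and WT, most BMP ligands and receptors had a higher mean level in KO, while Bmp7 and Acvrl1 had a lower one and Bmpr1b was not detected. None of the 9 members passed the edgeR quasi-likelihood test over all genes, with adjusted p between 0.81 and 0.984. That test called 0% of the 14244 genes. At an unadjusted p under 0.05 it had 832 genes (5.84%), of which 0 were members. In other tests of the same libraries Bmpr2 was under 0.05 before adjustment. Its p was 0.0417 in the DESeq2 Wald test and 0.0457 in the edgeR likelihood-ratio test, and these were 0.476 and 0.645 when adjusted. Over all genes, these tests called 219 and 50 after adjustment. The share of all genes under 0.05 before adjustment was not taken for them. The authors' own p-value for Bmpr2 was 0.0488 before adjustment. All of these p-values come from the same counts. With each library's trend with transcript length removed, the edgeR log2 fold change of Bmpr2 fell from 1.80 to 0.28. In the authors' deposited table the members also stayed above the threshold, with adjusted p from 0.531 for Bmpr2 to 0.945 for Acvrl1, where 1.43% of genes were called. The members' log2 fold changes were positive for 7 of 9, with a median of 0.88, against 49.4% of all genes and a median of -0.01.

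**Figure D2:**
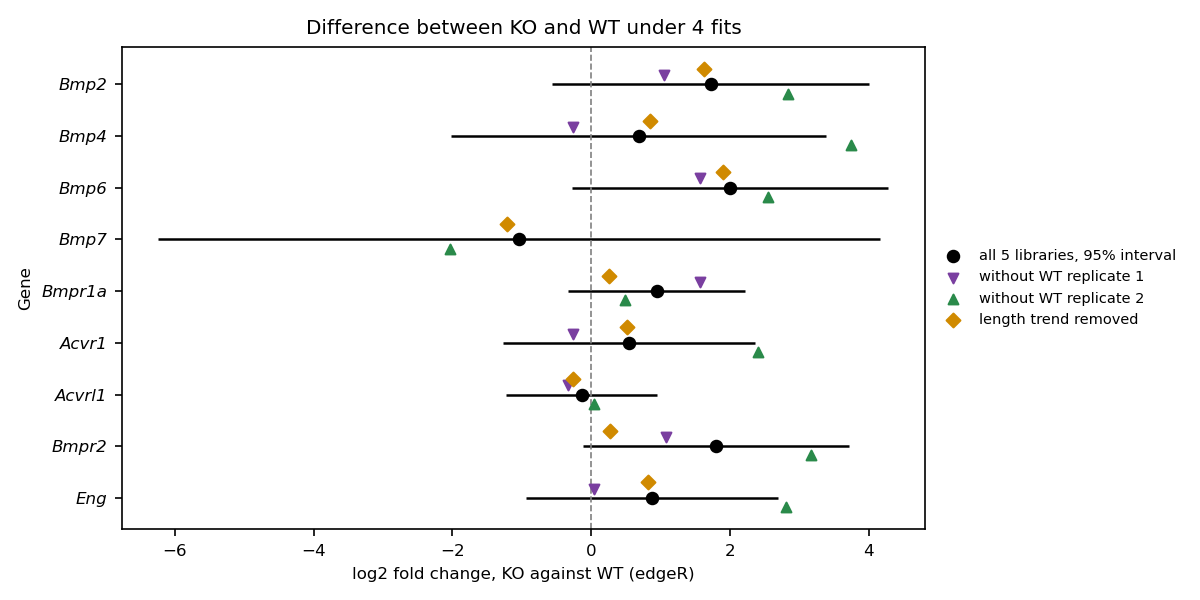
Log2 fold change of the 9 genes with reads, KO against WT, in edgeR. Black points and bars are the fit to all 5 libraries with 95% intervals, all of which cross 0, and coloured points are fits without a WT library or with the length trend removed. The Bmp7 fit without WT replicate 1, where WT has no read, is not drawn.

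Among the ligands, Bmp2, the signal of the atrioventricular canal, stood at 8.72 and 29.1 CPM in WT replicates 1 and 2 and at 11.3, 88.1 and 88.0 in KO replicates 1, 2 and 3. KO replicates 2 and 3 were above both WT libraries, and KO replicate 1 lay between them. The WT mean was 18.9 ± 14.4 (SD, n = 2), against 62.5 ± 44.3 (SD, n = 3) for KO. Bmp2 had a log2 fold change of 1.72 (SE 0.94, 95% interval -0.57 to 4.01), which was 1.06 if WT replicate 1 was left out and 2.84 if WT replicate 2 was.

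Bmp4, which encodes the closest relative of BMP2, had 2.59 and 40.6 CPM in WT, against 14.0, 32.8 and 57.4 in KO. The WT libraries differed 15.7-fold and spanned all but 1 of the KO values. Its log2 fold change was 0.68 (SE 1.11, 95% interval -2.03 to 3.39), with -0.26 if WT replicate 1 was left out and 3.74 if WT replicate 2 was. The end of Bmp4 shares bases with the gene Gm15217 on the opposite strand, which had at most 11 reads in a library. The antisense gene Gm15222 spans 1764 bases within the Bmp4 gene and has no row in the count table. Bmp6, Bmpr1a, Acvr1 and Acvrl1 also overlap opposite-strand genes that the count table lacks. Whether reads from such genes were counted for the members was not tested.

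Bmp6, a ligand of the Bmp5/6/7 subgroup that liver endothelium also makes as an iron signal, had 3.24 and 6.24 CPM in WT, against 8.31, 7.71 and 41.1 in KO. It was the 1 gene of the 9 tested with every KO library above both WT libraries, and such genes made up 13.5% of all 14244 genes tested. None of the 9 had every KO library below both, against 11.1% of all genes. KO replicate 3 held most of the difference. The log2 fold change was 2.0 (SE 0.94, 95% interval -0.28 to 4.29), and 0.76 without KO replicate 3. The last 224 bases of Bmp6 overlap Txndc5 on the opposite strand, which had 6165 to 21097 reads in a library, and the library kit does not mark the strand.

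Bmp7, of the same subgroup, had 1192 reads in WT replicate 1 (45.4 CPM, 95% Poisson interval 42.8 to 48.0) and none in WT replicate 2, the deepest library. Taken against a floor of 3 counts in WT replicate 2, which is 0.052 CPM, its level in WT replicate 1 was at least 872-fold higher. In KO replicates 1, 2 and 3 it stood at 16.1, 14.7 and 2.42 CPM, between the WT values. Its log2 fold change of -1.04 had an SE of 2.14 and a 95% interval of -6.24 to 4.17, the widest of the members tested. The direction was not stable: without WT replicate 1 no WT read of Bmp7 is left and every KO library lies above WT, and limma-voom on all 5 libraries gave 5.07. Such a contrast between the WT libraries was uncommon: 287 of the 14244 genes had no read in WT replicate 2 and at least 100 in WT replicate 1, and 414 had the reverse.

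**Figure D3:**
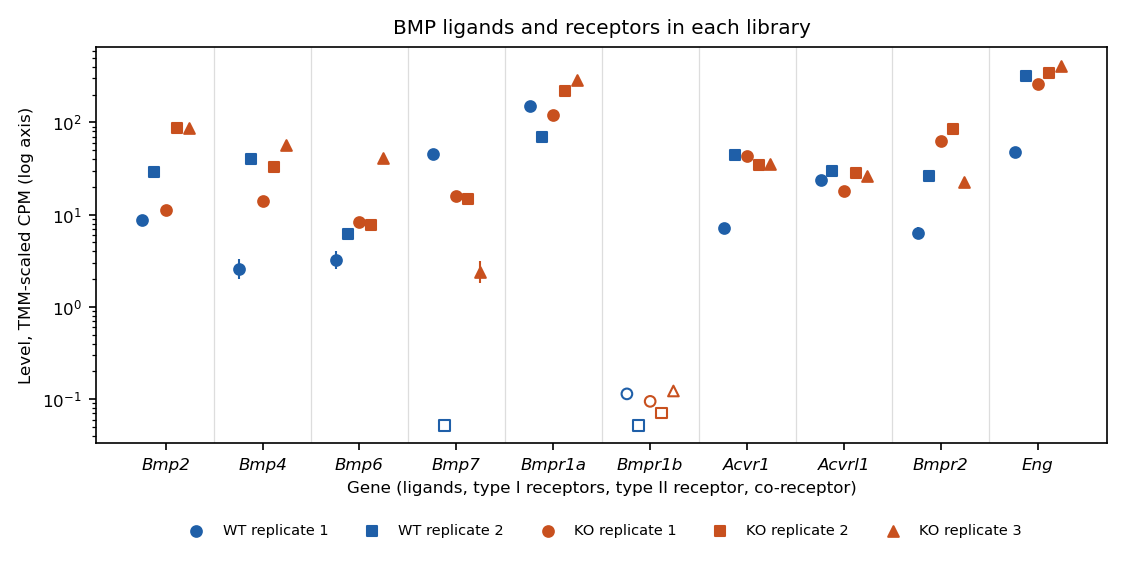
CPM of the 10 genes, one point per library, drawn on a logarithmic axis with 95% Poisson bars for counting error. Open symbols stand at the floor of 3 counts for a library with no read (Bmp7 in WT replicate 2, Bmpr1b in all 5). WT replicate 1 is the lowest point for Bmp2, Bmp4, Bmp6, Acvr1, Bmpr2 and Eng.

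Of the type I receptors, Bmpr1a (ALK3), the main receptor of BMP2 and BMP4, had 149 and 68.7 CPM in WT, against 119, 221 and 289 in KO. WT replicate 2 was the lowest of the 5, and KO replicate 1 lay between the WT libraries. The log2 fold change was 0.95 (SE 0.52, 95% interval -0.33 to 2.22), and 1.57 without WT replicate 1 and 0.49 without WT replicate 2.

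Bmpr1b (ALK6), the other type I receptor of BMP2 and BMP4 and one known from cartilage, had no read. A count of 0 allows up to 0.052 CPM in WT replicate 2 and up to 0.123 in KO replicate 3, the most and the least deeply sequenced libraries. Against such floors, and per transcript length, Bmpr1a was at least 1128-fold higher in KO replicate 1 and at least 2799-fold higher in KO replicate 2, the lowest and highest of the 5 ratios. Intervals and floors cover counting error only.

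Acvr1 (ALK2), the type I receptor favoured by BMP6 and BMP7, had 7.12 and 44.2 CPM in WT, against 43.3, 34.5 and 35.1 in KO. The KO libraries were close together, 37.6 ± 4.97 (SD, n = 3), and all lay just below WT replicate 2, while WT replicate 1 was 6.21-fold below WT replicate 2. The log2 fold change of 0.55 (SE 0.75) took the values -0.26 without WT replicate 1 and 2.40 without WT replicate 2.

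Acvrl1 (ALK1), the endothelial receptor of BMP9 and BMP10, varied least of the members between libraries, relative to its mean. It had 23.5 and 29.6 CPM in WT, against 17.9, 28.2 and 26.3 in KO. The KO mean was 24.1 ± 5.51 (SD, n = 3) against 26.5 ± 4.33 (SD, n = 2) in WT. Its log2 fold change was -0.14 (SE 0.45), with a 95% interval of -1.23 to 0.95.

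Bmpr2, the type II receptor that pairs with all of these, had 6.32 and 26.4 CPM in WT, against 62.9, 85.6 and 22.6 in KO. KO replicates 1 and 2 were above both WT libraries, and KO replicate 3 lay between them. The log2 fold change of Bmpr2 was 1.80 (SE 0.79, 95% interval -0.12 to 3.72), which was 1.08 if WT replicate 1 was left out and 3.17 if WT replicate 2 was. It has by far the longest transcript of the members, 12899 nt. Transcripts over 6000 nt were low in WT and high in KO as a class: their median deviation from the gene mean was -0.55 and -0.39 (log2) in WT replicates 1 and 2, and 0.40, 0.79 and 0.26 in KO. With each library's trend with length removed, the log2 fold change of Bmpr2 was 0.28 (SE 0.68) and that of Bmpr1a, at 5956 nt, was 0.26 (SE 0.56). The median of all genes was then -0.11.

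Eng encodes endoglin, which presents BMP9 and BMP10 to ALK1 and marks endothelium. It had 48.2 and 320.2 CPM in WT, against 259, 346 and 411 in KO. WT replicate 1 was 6.65-fold below WT replicate 2, and WT replicate 2 lay among the KO libraries. The log2 fold change was 0.88 (SE 0.75, 95% interval -0.94 to 2.70), and without WT replicate 1 it was 0.046 (SE 0.35, 95% interval -0.79 to 0.88). The last 61 bases of Eng overlap Fpgs on the opposite strand, which had 247 to 2216 reads in a library.

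Levels of different genes were compared per kilobase of the longest transcript (RPKM), which keeps each library's trend with length. Eng was highest, with a mean of 80.9 ± 40.6 (SD, n = 5) over all libraries, followed by Bmpr1a at 28.4 ± 14.6. Eng was above Bmpr1a in 4 of 5 libraries, and in WT replicate 1 Bmpr1a was first. Bmp4 and Bmp2 came next at 14.3 ± 10.5 and 12.7 ± 11.3, and Bmp4 was above Bmp2 in 3 of 5 libraries, so these neighbours did not differ beyond their spread. Acvr1 (9.97 ± 4.58) and Acvrl1 (6.89 ± 1.28) followed, but Bmp2 was above Acvr1 in just 3 of 5 libraries, so these were not ordered either. Bmp7, Bmp6 and Bmpr2, at 4.28 ± 4.92, 3.71 ± 4.36 and 3.16 ± 2.52, could not be ordered, since each was above its neighbour in at most 3 of 5 libraries.

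The WT libraries stood further apart than the groups. Their difference in log2 CPM exceeded that between the KO and WT means for 8 of 9 members, against 65.4% of all genes, and Bmp6 was the exception. WT replicate 1 was the lowest of the 5 libraries for 6 of 9 members (Bmp2, Bmp4, Bmp6, Acvr1, Bmpr2 and Eng), against 26.2% of all genes. It was more than 4-fold below WT replicate 2 for 4 of 9 (Bmp4, Acvr1, Bmpr2 and Eng), against 14.9%. These are descriptions of a chosen list, beside the same measure over all genes.

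What the members show therefore turns on which WT library is used. Against WT replicate 1 alone, 6 members (Bmp2, Bmp4, Bmp6, Acvr1, Bmpr2 and Eng) were higher in every KO library, where 30.7% of all genes were, and the median log2 fold change was 2.56, with 0.25 for all genes. Against WT replicate 2 alone these were 3 members (Bmp6, Bmp7 and Bmpr1a), where 28.3% of all genes were higher, and the median was 1.06, with 0.15 for all genes. A title code that no label calls a batch is common to WT replicate 1, KO replicate 1 and KO replicate 2. Within these 3 libraries the log2 fold change was 3.55 for Bmpr2, 3.17 for Bmp4, 2.65 for Eng, 2.51 for Bmp2, 2.45 for Acvr1 and 1.31 for Bmp6. It was 0.19 for Bmpr1a, -0.03 for Acvrl1 and -1.56 for Bmp7. There 6 members were higher in both KO libraries, where 41.2% of all genes were. Positive log2 fold changes numbered 8 of 9 against WT replicate 1 alone, where 57.1% of all genes were positive, and 6 of 9 against WT replicate 2 alone, where 55.2% were. These fits contain no spread between WT libraries. None called a member (smallest adjusted p = 0.0839 in edgeR, for Bmp7), while 1.6% of all genes were called without WT replicate 1 and 0% without WT replicate 2. Among the KO libraries, the count of members higher in every remaining KO library was 4 without replicate 1 (20.9% of all genes), 1 without replicate 2 (16.9%) and 2 without replicate 3 (21.5%). WT replicate 2 and KO replicate 3 carry other codes, so no second such value can be had.

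Ratios within a library do not depend on its scaling, but they keep its trend with transcript length. Eng relative to the summed endothelial markers was 0.105 and 0.102 in WT replicates 1 and 2, close together although the level of Eng differed 6.65-fold between them. In KO it was 0.146, 0.148 and 0.239, above both WT libraries. The difference was 0.74 on the log2 scale, with p = 0.1 in an exact two-sided permutation test, the smallest p that 2 against 3 libraries allow, and 0.771 adjusted over the 9 members. Without any 1 library the difference lay between 0.51 and 0.86. The markers in the sum did not move together: 7 had positive and 3 negative log2 fold changes. Cdh5 and Emcn were above both WT libraries in every KO library, while Cldn5 and Egfl7 had log2 fold changes of -1.19 and -1.09. The ratio therefore depends on the list, and ratios to single markers were not tested. Acvr1 was also steady against the summed markers, at 0.0155 and 0.0141 in WT and 0.0244, 0.0148 and 0.0204 in KO. Other members were not. Acvrl1 stood at 0.0511 and 0.00943 in WT and 0.0101, 0.0121 and 0.0153 in KO. Bmpr1a stood at 0.324 and 0.0219 in WT and 0.0671, 0.0946 and 0.168 in KO.

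Acvrl1 and Eng, receptor and co-receptor in endothelium, did not keep a fixed proportion. Per length, the ratio of Acvrl1 to Eng was 0.458 in WT replicate 1 and 0.0869 in WT replicate 2, and it was 0.0649, 0.0766 and 0.0603 in KO. All 3 KO libraries were below both WT libraries (log2 difference -1.58, exact permutation p = 0.1, and 0.4 adjusted over 4 pairs), but without WT replicate 1 the difference was -0.38. Bmpr1a exceeded Bmpr2 per length in every library, 50.9-fold and 5.63-fold in WT and 4.10-fold, 5.58-fold and 27.7-fold in KO. The 2 libraries at the high end, WT replicate 1 and KO replicate 3, belong to different groups. The Bmpr1a and Bmpr2 transcripts differ in length, 5956 and 12899 nt, and these ratios keep each library's trend with length. With that trend removed, the log2 fold changes were 0.26 for Bmpr1a and 0.28 for Bmpr2, against 0.95 and 1.80 before.

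The type I receptors Acvr1 and Bmpr1a changed order between libraries. Their ratio per length was 0.0866 and 1.16 in WT and 0.659, 0.283 and 0.219 in KO. Acvr1 was thus above Bmpr1a only in WT replicate 2. Bmp2 and Bmp4 also exchanged places, with ratios of 1.95 and 0.417 in WT and 0.469, 1.56 and 0.890 in KO. The exact permutation p was 1 for both pairs, and the groups overlapped in each.

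**Figure D4:**
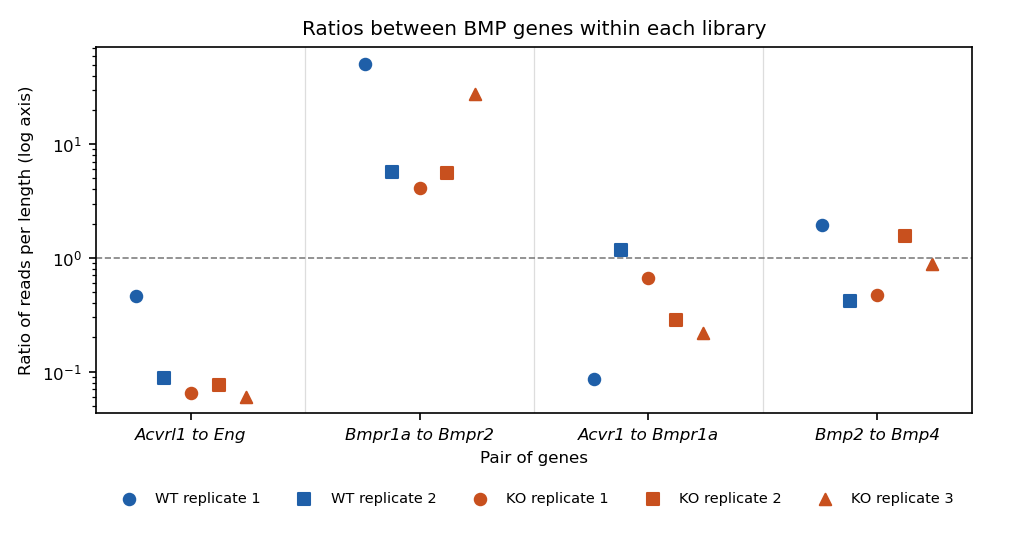
Ratio of reads per transcript length for 4 pairs of genes in each library, one point per library on a logarithmic axis, with the dashed line at equal levels. For Acvrl1 to Eng, WT replicate 1 lies at 0.458 and the other 4 libraries between 0.0603 and 0.0869.

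The rest of the pathway was followed in 53 other genes, of which 43 were tested. None passed the edgeR test (smallest adjusted p = 0.81), and at an unadjusted p under 0.05 there were 7 higher and 1 lower, together 18.6% against 5.84% of all genes. Log2 fold changes were positive for 30 (69.8%) and negative for 13, with a median of 0.61, against 49.4% positive and a median of -0.01 for all genes. Every KO library was above both WT libraries for 12 of the 43 (27.9%) against 13.5% of all genes, and below both for 2 (4.65%) against 11.1%. Left out in turn, the WT libraries gave 15 of 46 without replicate 1 (32.6%, against 28.3% of all genes) and 29 of 45 without replicate 2 (64.4%, against 30.7%). Without KO replicates 1, 2 and 3 in turn the shares were 34.9%, 33.3% and 39.5%, against 20.9%, 16.9% and 21.5% of all genes. WT replicate 1 was the lowest of the 5 libraries for 25 of the 43 (58.1%), against 26.2% of all genes. The lists were chosen with earlier results of these data known, so these shares are descriptions and not a test of the pathway.

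The 3 other ligands tested (Bmp5, Bmp8a and Bmp15) all had negative log2 fold changes, from -0.21 to -2.19, and each had at most 1 read in a WT library. Each turned positive once the other WT library was left out. Of the other receptors and membrane partners, 3 of 7 were positive and 4 negative, against 49.4% of all genes positive. Bambi, a decoy receptor without a kinase that blunts BMP signals, had 134 and 181 CPM in WT, against 74.6, 60.5 and 78.4 in KO. All KO libraries were below both WT libraries, and the log2 fold change was -1.15 (SE 0.33, unadjusted p = 0.0113 in edgeR), -1.38 without WT replicate 1 and -0.92 without WT replicate 2. Acvr2a, a second type II receptor, was also below, at 31.0 to 34.5 CPM in KO against 54.6 and 41.6. Neo1, which encodes neogenin, a partner of the repulsive guidance co-receptors, had 17.2 and 15.0 CPM in WT, against 20.3, 79.9 and 46.8 in KO.

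Among 11 antagonists tested 9 were positive, against 49.4% of all genes. Chrdl1, which encodes a chordin-like binder of BMPs, had 1 read in both WT libraries together and 1019 in KO, at 3.82, 20.3 and 1.56 CPM in KO replicates 1, 2 and 3. Of the KO reads, 860 came from replicate 2. Over pooled reads KO exceeded WT 869-fold, with a 95% interval from 156 to 34351 that covers counting error only and not the spread between libraries. Crim1, a membrane protein that binds BMPs during their processing, had 1.07 and 5.10 CPM in WT, against 18.2, 16.1 and 21.6 in KO (log2 fold change 2.59, SE 0.79, or 1.84 with WT replicate 1 left out and 4.12 with WT replicate 2 left out). Fstl1, a secreted BMP binder and the most abundant of the list, had 583 and 1396 CPM in WT, against 1871, 1707 and 1677 in KO. Its log2 fold change of 0.82 was 0.30 with WT replicate 1 left out and 1.59 with WT replicate 2 left out. Grem1 had no read, and Sostdc1 had 11 reads in KO replicate 2 and none elsewhere.

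Of 5 processing enzymes 4 were positive, against 49.4% of all genes, and WT replicate 1 was the lowest library for 4 of the 5. Furin, the protease that cuts BMP precursors, had 7.23 and 13.6 CPM in WT, against 17.3, 38.9 and 73.6 in KO (log2 fold change 2.05, SE 0.69). Pcsk5, a related protease, and Bmp1, the procollagen protease that also cleaves chordin, overlapped between groups, with log2 fold changes of 0.61 and 0.62. These were -0.33 and -0.053 with WT replicate 1 left out, and 3.52 and 1.79 with WT replicate 2 left out. Tll1, which had no read in WT replicate 1, went from 0.37 to -0.67 with that library left out. Pcsk6, with no read in WT replicate 2, turned from -0.15 to a positive value there.

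Smads and the Smurf ligases were positive for 7 of 8, against 49.4% of all genes. Smurf1, a ubiquitin ligase for BMP Smads, had 6.89 and 7.73 CPM in WT, against 14.0, 25.5 and 32.1 in KO (log2 fold change 1.71, SE 0.56). The inhibitory Smad7, which BMP signals induce, was above both WT libraries in every KO library, at 11.4 to 18.4 CPM against 8.26 and 5.11. Its log2 fold change was 1.22 (SE 0.61), with a 95% interval of -0.27 to 2.7 that crosses 0. It was 1.57 with WT replicate 1 left out and 0.91 with WT replicate 2 left out. Smad6, the other inhibitory Smad, had 10.5 and 21.8 CPM in WT, against 11.2, 63.2 and 118 in KO, with KO replicate 1 between the WT libraries.

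Of 9 genes known as targets of BMP signals 7 were positive, against 49.4% of all genes. Tbx2, a T-box repressor of the atrioventricular canal, had 5 reads in WT and stood at 1.11, 6.58 and 6.22 CPM in KO. Over pooled reads, 466 in KO, KO exceeded WT 79.5-fold (95% interval from 33.8 to 246, for counting error only). The edgeR log2 fold change, which takes in the spread between libraries, was 6.12 (SE 1.45, 95% interval 2.6 to 9.64). Tbx20, another cardiac T-box factor, had 170 and 42.8 CPM in WT, against 371, 491 and 427 in KO (log2 fold change 2.02, SE 0.59, or 0.84 once the trend with length was taken out, 3.30 with WT replicate 1 left out and 1.34 with WT replicate 2 left out). Id4 had 0.0761 and 2.36 CPM in WT, against 7.23, 12.2 and 2.54 in KO. The more abundant Id genes overlapped between groups, with log2 fold changes of 0.49 for Id1, 0.09 for Id2 and -0.29 for Id3.

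**Figure D5:**
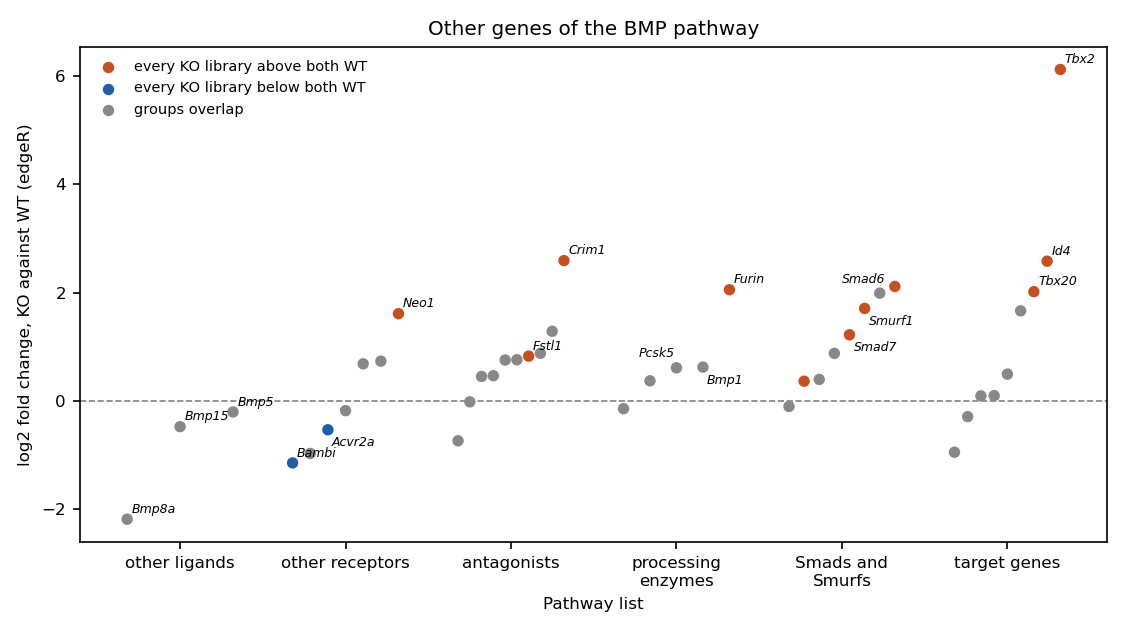
Log2 fold change (edgeR, KO against WT) of the other pathway genes tested, by list, with named genes labelled. Red points have every KO library above both WT libraries, blue points every KO library below both, and grey points overlap. Bambi lies lowest of the receptors at -1.15. Chrdl1, with 1 read in WT, is not drawn.

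For the highest ligand and the highest receptor, the genes most alike over the 5 libraries were found by the root mean square difference of log2 CPM centred on each gene's mean. For Bmp4 these included Aox1 and Zfp518a, at 0.197 and 0.200. For Eng they were Hmox1, Dock6 and Anks1, at 0.0946, 0.108 and 0.133. Of the members, Acvr1 was nearest to Eng (0.366) and Eng to Bmp4 (0.586), and 122 and 85 genes, these included, were as near. Bmp7 was the farthest from both.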

How the data were processed

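RNA of mitral leaflets was extracted on RNeasy columns, treated with DNase and made into libraries with the SMART-Seq v4 kit, which amplifies cDNA from little RNA without marking the strand, per the labels' protocols. The submitters' processing notes name the tools FastQC 0.11.5, cutadapt 1.11, HTSeq and DESeq2. They list mm10 and GRCm38 as builds. Aligner and annotation, not given in the sources used here, could affect which reads a gene received. The table has raw counts per gene and library, as deposited. Per the file headers it also has the authors' own comparison: a mean signal, log2 fold changes and their standard errors, a test score, and p-values before and after adjustment.

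Groups came from the titles, and replicates are numbered in order of deposit. The counts entered edgeR 4.0.16 (R 4.3.3). Of 17148 genes with a read, filterByExpr kept 14244. TMM factors lay between 0.837 and 1.07. The two-sided quasi-likelihood F test was run with robust estimation and adjusted by Benjamini-Hochberg over all genes (threshold 0.05). The script was tested on simulated data. Intervals of fold changes use the test's posterior dispersion and degrees of freedom. The median biological coefficient of variation was 62.8%. Ratios used a pseudocount of 0.5 counts. Coordinates and transcript lengths (the longest transcript) came from GENCODE M21 on GRCm38, which matched 98.3% of symbols. Emr1 in the table was read as Adgre1. The length alternative subtracted each library's loess trend of log2 CPM with length. Alternatives with DESeq2 1.42.0 and limma 3.58.1 were also run.

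Named genes are all members, up to 3 genes with the smallest p in each pathway list, and genes with no read in a group, and for Bmp4 and Eng the 3 genes most alike. Some genes that this rule names are not reported here. Id1, Id2 and Id3 were added after their values were seen. Members and lists were chosen with earlier results of these data known.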

Additional observations from a re-analysis of the deposited data

How the results depend on the processing

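The fold changes of Bmp2, Bmp6, Bmpr1a, Bmpr2 and Eng kept their sign under all 14 alternatives run, and no alternative called a member. The size of these fold changes did not hold. Eng was at 0.046 without WT replicate 1, and Bmpr2 and Bmpr1a were at 0.28 and 0.26 with the length trend removed. Across single left-out libraries, log2 fold changes ran from -0.26 to 3.74 for Bmp4 and from -0.26 to 2.40 for Acvr1. They ran from -0.33 to 0.039 for Acvrl1 and from -2.04 to 11.75 for Bmp7. The last depends on edgeR's prior count, since WT then has no read of Bmp7. On all 5 libraries limma-voom reversed Bmp7, from -1.04 to 5.07. The count of genes called was 0 with all libraries, 50 with the likelihood-ratio test, 219 with DESeq2, and 0 to 245 with single libraries left out (245 without WT replicate 1). The members' median ran from 0.64 to 2.56 over left-out libraries and was 2.45 within the shared title code. Members higher in every KO library numbered 1 to 6 over left-out libraries and 6 within the shared code, where 41.2% of all genes were higher. Ratios turned sign over left-out libraries for Bmp2 to Bmp4 (-1.17 to 1.06), Bmpr1a to Bmpr2 (-2.57 to 0.61) and Acvr1 to Bmpr1a (-1.76 to 1.99), and, against endothelial markers, for Bmp7 (-4.51 to 10.61), Bmpr1a (-1.67 to 2.22) and Acvrl1 (-2.05 to 0.38). The cause was not tested. No paired analysis was possible because the titles give no numbers that pair WT with KO libraries, and a block on the title code leaves only the 3 libraries that share one to set the difference, as in the fit within that code.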

Other observations

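Ligands outside the set varied between libraries, some with reads in 1 library alone. Bmp15, a growth factor known from oocytes, had 1 read in WT replicate 1 and 3305 in WT replicate 2 (57.3 CPM), and stood at 20.3, 13.4 and 28.2 CPM in KO replicates 1, 2 and 3. Gdf2, which encodes BMP9, the circulating ligand of ALK1 and endoglin made mainly by liver, had 438 reads in WT replicate 2 and none in the other 4 libraries. Gdf5, a ligand of joints, had 65 reads in KO replicate 3 and none elsewhere. Bmp10, the ligand of the heart's trabeculae, had 3 reads in WT replicate 1 and none elsewhere, and Bmp8b had none at all. Bmp5, of the same subgroup as Bmp7, had 244 reads in WT replicate 1 and none in WT replicate 2, with 2.34, 0.59 and 9.13 CPM in KO. Bmp8a had 226 reads in WT replicate 2, 54 in KO replicate 2 and none in the other libraries. Gdf7 had 7 and 2 reads in KO replicates 2 and 3 and none in the other 3.

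The mesothelial markers did not follow the groups either. Summed, they reached 57.5 and 9.14 CPM in WT, against 9.67, 150 and 23.5 in KO, and Upk3b had 2744 reads in KO replicate 2, 59 in KO replicate 3 and none in the other libraries. Smooth muscle markers (5 genes) summed to 1454 and 653 CPM in WT, against 704.5 to 1533 in KO, and macrophage markers (6 genes) to 55.0 and 196, against 76.8 to 215. Mast cell markers (4 genes) summed to 19.8 and 148 CPM in WT, against 62.8 to 88.5 in KO, with WT replicate 1 again the lowest. Melanocyte markers lay between 39.4 and 91.5 CPM and Schwann cell markers between 1.71 and 16.4. The globin genes Hba-a1, Hbb-bs and Hbb-bt had no counted read in any library. Whether the counting could assign reads to them was not tested. Alas2, the other erythroid marker, had 92.7 and 2.6 CPM in WT, against 34.8, 8.28 and 0 in KO.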
